A study of Mus musculus with 19 samples.

Results

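The set described here holds 38 genes of mitosis and of the G2/M transition, chosen by gene symbol from a fixed list, and all 38 were found in each of the 4 deposited tables, which hold 15235 genes in common. RNA-seq libraries were made from B lineage cells sorted from mice on day 28 after an intraperitoneal injection of sheep red blood cells. The series design gives 4 Pik3cg knockout and 3 wild-type mice, and Pik3cg encodes the catalytic subunit p110γ of a class IB phosphoinositide 3-kinase. The 19 libraries fall into 6 groups. Spleen germinal centre B cells, sorted as CD95+/GL7+, gave 4 libraries labelled Pik3cg Knockout and 3 labelled Wild type. Spleen naive B cells, sorted as CD3-/B220+/IgD+, gave 3 libraries labelled Pik3cg Knockout and 3 labelled Wild type. Antibody-secreting cells, sorted as CD138+ and all labelled Wild type, gave 3 libraries from bone marrow and 3 from spleen. The naive and antibody-secreting libraries labelled Wild type are headed HET in the deposited values, whereas no germinal centre library is. The labels were kept. All animals were immunized, so no group is unimmunized, and the sources used here do not give the deleted region or the strain and age of the mice.

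A dividing cell passes from G2 into mitosis when cyclin B bound to Cdk1 becomes active, builds a spindle that grips each chromosome at its kinetochore, and leaves mitosis once the anaphase-promoting complex has marked cyclin B and securin for destruction. Transcripts of these genes are low in resting cells and accumulate late in the cycle, under the DREAM, MuvB, B-Myb and FoxM1 complexes, which act on promoters that carry CHR elements and CCAAT boxes. Germinal centre B cells divide rapidly, naive B cells rest, and long-lived plasma cells have left the cycle.

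Promoters of 4 members are shown because members of the set share these elements while differing in level between the sorted cells. RefSeq promoter windows (build GRCm38.p6, 250 bases before to 50 after each start) were found for 32 of the 38 members. The CHR letters TTTGAA were present on either strand in 23 of these 32 genes, against 20.2% of 27025 genes. The CCAAT letters were present on either strand in 24, against 41.1% of all genes. Both were present in 20, or 62.5%, against 7.97% of all genes. The 4 below are those with both motifs and the highest mean CPM over the 19 libraries, printed 5′ to 3′ on the gene's strand up to the base before the start, with either motif, on either strand, in capitals. No match overlaps another in the bases printed.
Top2a, chr11:99024190-99024439, minus strand: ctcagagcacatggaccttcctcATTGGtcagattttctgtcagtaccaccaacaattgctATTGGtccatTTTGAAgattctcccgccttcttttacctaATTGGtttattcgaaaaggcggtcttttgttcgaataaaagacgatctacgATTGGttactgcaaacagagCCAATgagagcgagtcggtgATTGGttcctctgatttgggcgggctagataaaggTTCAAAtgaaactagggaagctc
Mki67, chr7:135716380-135716629, minus strand: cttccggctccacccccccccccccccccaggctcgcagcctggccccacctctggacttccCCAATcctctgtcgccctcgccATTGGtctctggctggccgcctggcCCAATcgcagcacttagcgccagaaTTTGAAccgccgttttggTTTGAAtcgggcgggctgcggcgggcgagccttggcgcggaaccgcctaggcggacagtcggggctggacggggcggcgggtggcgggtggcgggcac
Cks1b, chr3:89418292-89418541, minus strand: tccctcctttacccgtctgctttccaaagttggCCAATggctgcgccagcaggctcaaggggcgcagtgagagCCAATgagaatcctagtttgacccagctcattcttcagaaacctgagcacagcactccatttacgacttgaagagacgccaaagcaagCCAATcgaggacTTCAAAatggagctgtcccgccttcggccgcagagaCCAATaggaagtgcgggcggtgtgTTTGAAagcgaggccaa
Smc2, chr4:52438971-52439220, plus strand: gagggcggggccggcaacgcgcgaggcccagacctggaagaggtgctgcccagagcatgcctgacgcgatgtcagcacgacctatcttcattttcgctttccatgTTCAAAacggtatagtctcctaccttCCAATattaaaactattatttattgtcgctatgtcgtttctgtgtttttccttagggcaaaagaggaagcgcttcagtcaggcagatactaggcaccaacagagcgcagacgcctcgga
The CCAAT letters occurred 6 times before the Top2a start, 4 times before the Cks1b start, 3 times before the Mki67 start and 1 time before the Smc2 start. The CHR letters nearest to the start lay at -23 in Top2a, -17 in Cks1b and -98 in Mki67, counted to the first base of the match on the gene's strand. In Smc2 the match before the start lay at -145, and a nearer match, 27 bases after the start, is not printed. A match of letters is a description of the window and not evidence of a bound site.

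Germinal centre libraries had a depth of 16.5 to 21.6 M reads (M, 1000000) and the others 10.2 to 17.6 M, so that 3 reads were worth 0.139 to 0.293 CPM (counts scaled to a library total of 1000000). Pik3cg was 66.0, 52.8, 6.55 and 9.04 CPM in the germinal centre libraries labelled knockout, against 56.5, 34.3 and 19.4 CPM in the wild-type ones. In naive cells it was 94.98, 127 and 97.7 CPM in libraries labelled knockout, against 115, 110.1 and 110.6 CPM in those labelled wild type. The labels overlapped in both tables, and since the deleted part is not given this transcript checks nothing, so the groups are called by their labels throughout. The germinal centre label met its markers in the libraries labelled knockout and not in those labelled wild type. The summed level of 8 germinal centre markers was 2263 to 3061 CPM in libraries labelled knockout, against 247 to 289 CPM in those labelled wild type. Rgs13, Gcsam and S1pr2 were listed at 0 in every library labelled wild type. Fas, which encodes the sorting marker CD95, averaged 249.7 ± 31.0 CPM in the 4 libraries labelled knockout and 213 ± 14.6 CPM in the 3 wild-type ones (SD). Naive markers summed to 7319 to 8439 CPM in naive libraries, and plasma cell markers to 111772 to 159567 CPM in antibody-secreting libraries. The labels do not tie each library to a mouse, so p-values measure the spread between libraries.

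The set was high in both germinal centre groups and low elsewhere. The summed level of the 38 genes was 7227, 4465, 5827 and 6558 CPM in the germinal centre libraries labelled knockout. It was 4049.8, 5061 and 5147 CPM in the germinal centre libraries labelled wild type. Naive libraries labelled knockout held 209, 229.7 and 222.2 CPM, and those labelled wild type held 276.1, 186 and 154 CPM. All 7 germinal centre libraries stood above every naive library, including the 3 that lacked Rgs13, Gcsam and S1pr2. Bone marrow antibody-secreting cells held 125, 123 and 479 CPM, and spleen antibody-secreting cells held 165, 207 and 170.2 CPM. In bulk RNA, fewer cells of a type and less RNA per cell cannot be told apart.

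**Figure D1:**
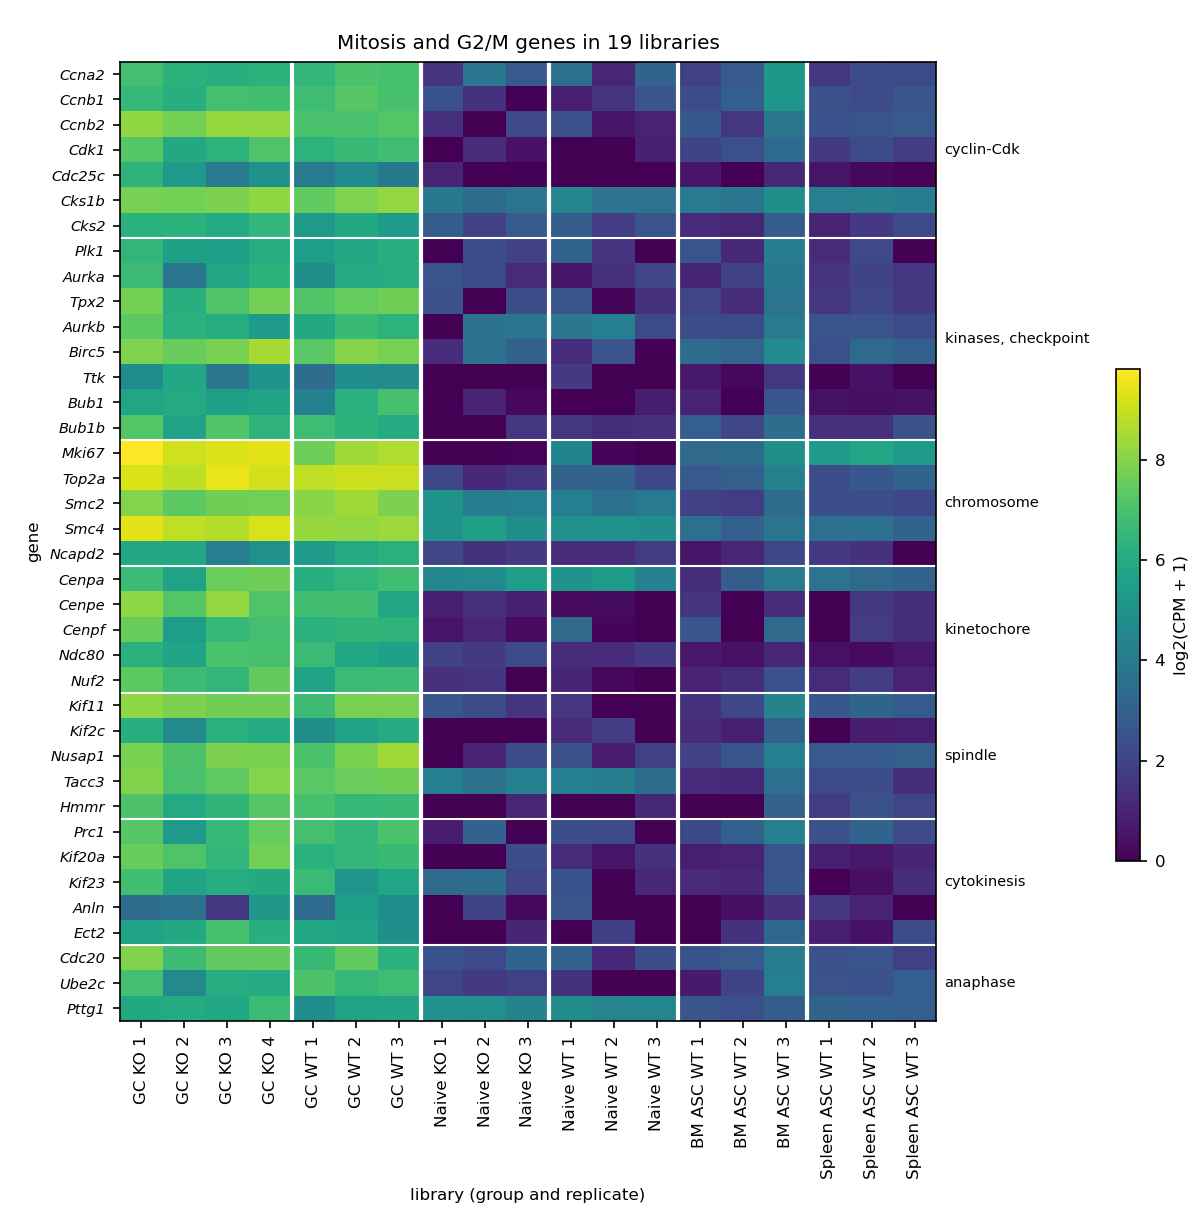
Level of each of the 38 genes (rows, grouped by role) in each of the 19 libraries (columns), coloured by log2(CPM + 1). The 7 germinal centre columns are bright for nearly every gene, and bone marrow antibody-secreting replicate 3 is brighter than its 2 partners for 37 of 38 genes.

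Gene by gene, all 38 members were higher in every germinal centre library labelled wild type than in every naive library labelled wild type, where 31.6% of 8820 genes were higher and 29.0% lower. Between the groups labelled knockout, 37 of 38 were higher in every germinal centre library, where 25.7% of 8732 genes were higher and 22.6% lower. The exception was Anln, the anillin scaffold of the cleavage furrow, with 10.5, 11.8, 2.003 and 35.6 CPM in germinal centre libraries, against 0, 3.06 and 0.157 CPM in naive libraries. Every germinal centre library exceeded all 12 other libraries for 35 of 38 members, all but Aurka, Anln and Pttg1, where 15.8% of 8226 genes did so. With immunoglobulin genes left out of the totals it was 30 of 38, where 13.5% of 8753 genes did so, and Ccna2, Ccnb1, Aurkb, Prc1 and Ube2c were the further exceptions. These counts are descriptions, since the tables were normalized separately.

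The lower of the germinal centre group means was a median of 13.5 times the highest mean among the 4 other groups as deposited, and 6.39 times with immunoglobulin genes left out of the totals. As deposited the ratio was lowest, 1.63, for Pttg1, which encodes securin, the inhibitor of separase, and highest, 82.5, for Cenpe, a kinesin of the kinetochore. Without immunoglobulin genes these were again the lowest and the highest, at 1.78 and 32.3. Pttg1 was 30.2, 29.2 and 20.3 CPM in naive libraries labelled knockout, against 27.5, 21.0 and 21.9 CPM in those labelled wild type, so it was well detected in resting cells. Cenpa, the histone H3 variant of centromeres, Smc4 and Smc2, the condensin ATPases, Tacc3, a spindle protein, and Cks1b, a Cdk-binding subunit, were likewise between 9.98 and 46.3 CPM in every naive library. Above 3 reads in every naive library were 18 of 38 members under the knockout label and 19 under the wild-type label. In the naive groups, 18 of 38 members were at 0 in at least 1 library labelled knockout, and 18 of 38 in at least 1 labelled wild type.

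Exon length was taken as the union over all annotated transcripts of a gene, so it can exceed that of the transcript expressed. Per kilobase of this length, Cks1b was the most abundant member in both germinal centre groups. It was at 211.8 CPM per kb in those labelled knockout and 209.7 in those labelled wild type. Ccnb2, the cyclin B2 gene, came next in both, at 182 CPM per kb in those labelled knockout and 85.9 in those labelled wild type. Anln was the least abundant in both, at 1.65 CPM per kb in those labelled knockout and 2.99 in those labelled wild type. Within a group the libraries differed most for members in bone marrow antibody-secreting cells, where the median coefficient of variation was 93.4%. In naive cells it was 80.1% among libraries labelled knockout and 87.0% among those labelled wild type, and in spleen antibody-secreting cells it was 32.7%. It was 36.2% and 26.7% in the germinal centre groups labelled knockout and wild type.

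The sum over the set divided by the sum over 45 genes of the G1/S transition does not depend on the total of a library. It was 0.871, 0.651, 0.798 and 0.724 in germinal centre libraries labelled knockout and 0.699, 0.716 and 0.743 in those labelled wild type, so the groups overlapped. It lay between 0.157 and 0.167 in naive libraries labelled knockout and between 0.111 and 0.213 in those labelled wild type. Antibody-secreting cells lay between, at 0.450, 0.451 and 0.591 in bone marrow and 0.366, 0.5259 and 0.384 in spleen.

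**Figure D2:**
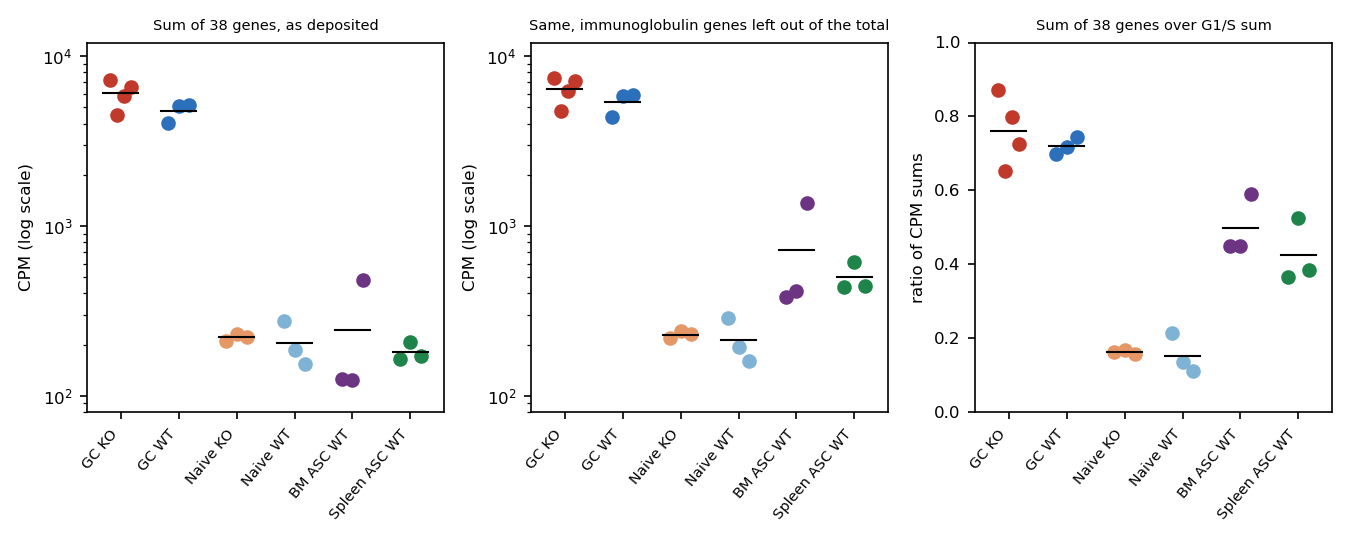
Sum of the 38 genes in each library (points, with group means as lines) in CPM as deposited on a log axis (left), with immunoglobulin genes left out of the total (middle), and as a ratio to the sum of 45 G1/S genes on a linear axis (right). The naive libraries (154 to 276.1 CPM) and spleen antibody-secreting libraries (165 to 207 CPM) overlap on the left and separate in the other panels.

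Within the germinal centre table, libraries labelled knockout were compared with those labelled wild type, which also differed in germinal centre markers and in Cdkn1a. The comparison is therefore between labels, and what it owes to p110γ was not tested. Of the 38 members, 3 were higher in libraries labelled knockout and none lower by limma on log2(CPM + 1) at an adjusted p under 0.05. The 3 were Ccnb2, Mki67 and Smc4. Over the 8522 genes tested, 8.54% were called higher and 5.09% lower, so 3 of 38 is a share near the background. The fold change was positive for 26 members and negative for 12, with a median of 0.23 on the log2 scale, against 0.03 over all genes tested. The direction of these small shifts moved with the scaling, with 21 members positive once immunoglobulin genes were left out of the totals.

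Ccnb2, whose product is a partner of Cdk1, had 292, 217, 306 and 297 CPM in libraries labelled knockout, against 125, 126 and 144 CPM in those labelled wild type. The groups did not overlap, and replicate 2 was the lowest of those labelled knockout. It averaged 278 ± 41.1 CPM in libraries labelled knockout (SD, n = 4) and 131 ± 10.9 CPM in those labelled wild type (SD, n = 3). The log2 fold change was 1.07, with an SE of 0.18 and a limma adjusted p of 0.00503. It was called under all 17 alternatives tried, with adjusted p from 0.0020 to 0.048.

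Mki67 encodes Ki-67, the surfactant-like coat of mitotic chromosomes and the usual marker of cycling cells. It had 894, 549, 624 and 672 CPM in libraries labelled knockout, against 197, 337 and 393 CPM in those labelled wild type, again without overlap. The log2 fold change was 1.18, with an SE of 0.25 and a limma adjusted p of 0.0158. The call held under 16 of 17 alternatives and was lost with a replicate block (1.18, limma adjusted p = 0.061). Mki67 made up 10.2% to 12.4% of the summed level of the set in libraries labelled knockout, against 4.86% to 7.63% in those labelled wild type.

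Smc4, the condensin subunit that pairs with Smc2 to compact chromosomes, had 679, 462, 415 and 592 CPM in libraries labelled knockout, against 309, 297 and 323 CPM in those labelled wild type. The groups did not overlap, and those labelled wild type lay close together. The log2 fold change was 0.76, with an SE of 0.18 and a limma adjusted p of 0.0255. The call was lost without replicate 4 of the knockout label (0.71, adjusted p = 0.057) and without replicate 1, 2 or 3 of the wild-type label (0.76, 0.73 and 0.79, adjusted p = 0.075, 0.099 and 0.067). It was also lost with replicate 1 of the knockout label and replicate 3 of the wild-type label both left out (0.67, adjusted p = 0.11). The same held with no filter on low genes (0.76, adjusted p = 0.053) and with a replicate block (0.71, adjusted p = 0.070). Its partner Smc2 had 252, 159, 204 and 209 CPM in libraries labelled knockout, against 266, 339.6 and 232 CPM in those labelled wild type. The groups overlapped as deposited, and the log2 fold change was -0.44 (95% interval -0.90 to 0.03, limma adjusted p = 0.20). Ncapd2, a condensin subunit of the HEAT-repeat kind, had a log2 fold change of -0.66 with an interval from -1.74 to 0.42.

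**Figure D3:**
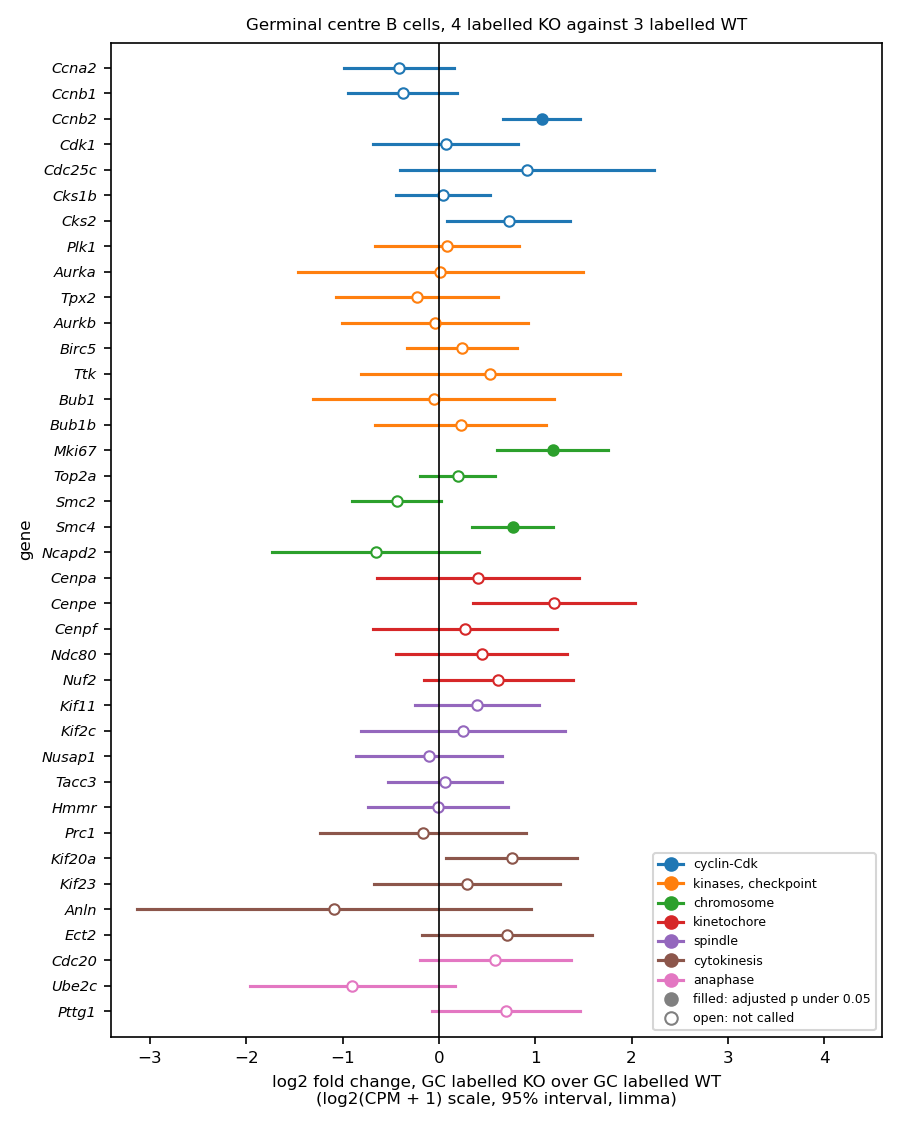
Log2 fold change of each of the 38 genes in germinal centre libraries labelled knockout over those labelled wild type, with 95% intervals from limma, coloured by role. The filled points are Ccnb2 (1.07), Mki67 (1.18) and Smc4 (0.76), and the intervals of most other members include 0.

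Without a test, 6 members had every library labelled knockout above every library labelled wild type, and none had the opposite order. Over the genes tested, 15.6% were separated upward and 11.7% downward, so 6 of 38 is again near the background. Beside Ccnb2, Mki67 and Smc4, these were Cenpe, Cks2 and Pttg1. Cenpe had 283.2, 149, 297 and 136 CPM in libraries labelled knockout, against 113, 112 and 54.0 CPM in those labelled wild type, with replicates 1 and 3 of the knockout label well above replicates 2 and 4. Its log2 fold change was 1.197 with an SE of 0.37 and did not pass (limma adjusted p = 0.066), though it did without replicate 4 of the knockout label (1.39, adjusted p = 0.047). Cks2, a Cdk-binding subunit like Cks1b, had 75.3, 78.6, 62.1 and 88.5 CPM in libraries labelled knockout, against 37.8, 61.2 and 40.1 CPM in those labelled wild type. Its nearest libraries were at 62.1 and 61.2 CPM, and with immunoglobulin genes left out of the totals the groups overlapped. Under that scaling 5 members were separated upward and 1, Smc2, downward, where 13.7% and 13.3% of genes were. Pttg1 had 60.3, 63.8, 57.0 and 101 CPM in libraries labelled knockout, against 28.4, 49.6 and 52.3 CPM in those labelled wild type. The log2 fold changes were 0.72 (limma adjusted p = 0.13) for Cks2 and 0.70 (limma adjusted p = 0.22) for Pttg1.

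Among the 7 cyclin and Cdk genes, Ccnb2 was the 1 called and the others differed in sign. Ccna2, the cyclin A2 gene, and Ccnb1, the cyclin B1 gene, had log2 fold changes of -0.42 and -0.38, with limma adjusted p of 0.33 and 0.37. Cdk1, the mitotic kinase, had 0.07 with an interval from -0.69 to 0.82. Cks1b had 219, 215, 233 and 287 CPM in libraries labelled knockout, against 171, 238 and 299.8 CPM in those labelled wild type, with wide overlap. Reads of a near-identical copy could enter Ccnb1, since Ccnb1-ps averaged 42.2 CPM in libraries labelled knockout and 44.7 CPM in those labelled wild type, whereas the copies Ccnb2-ps and Cks1brt were at most 4.49 CPM in any germinal centre library.

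None of the 8 kinase and checkpoint genes was called by limma or had an unadjusted p under 0.05, and their median log2 fold change was 0.05. Birc5, which encodes survivin of the chromosomal passenger complex, had 239, 182, 226 and 354.9 CPM in libraries labelled knockout, against 158, 252 and 218 CPM in those labelled wild type. Aurkb, the kinase of that complex, had 159, 76.6, 65.5 and 40.6 CPM in libraries labelled knockout, against 60.4, 97.0 and 80.4 CPM in those labelled wild type. The groups overlapped for both genes, and replicate 1 of the knockout label was far above the rest for Aurkb. Aurka, the centrosomal Aurora kinase, ranged from 13.6 to 104 CPM in libraries labelled knockout and from 28.5 to 66.4 CPM in those labelled wild type.

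Among the kinetochore, spindle, cytokinesis and anaphase genes no member was called by limma either, and 1 kinetochore and 1 cytokinesis gene had an unadjusted p under 0.05. All 5 kinetochore genes had positive fold changes, with a median of 0.45 on the log2 scale, and Cenpe was the closest to the threshold. Top2a, the topoisomerase that untangles sister chromatids, had the highest CPM of the set, not corrected for length, in libraries labelled wild type. It had 607, 453, 737 and 556 CPM in libraries labelled knockout, against 469, 529 and 521 CPM in those labelled wild type, a log2 fold change of 0.20 with an interval from -0.19 to 0.58. Of the spindle genes, Nusap1, a microtubule-bundling protein, had 227, 133, 230.0 and 228 CPM in libraries labelled knockout, against 128, 225 and 341.6 CPM in those labelled wild type. The libraries labelled wild type spanned all 4 labelled knockout.

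Of the cytokinesis genes, Kif20a, a kinesin of the central spindle, had 182, 138, 88.4 and 210.9 CPM in libraries labelled knockout, against 75.9, 88.0 and 97.8 CPM in those labelled wild type. Its log2 fold change of 0.75 (limma adjusted p = 0.14) passed without replicate 3 of the knockout label (1.00, adjusted p = 0.031), the library that overlapped those labelled wild type. Of the anaphase genes, Cdc20, an activator of the anaphase-promoting complex, had 245, 103, 172 and 174 CPM in libraries labelled knockout, against 99.8, 174 and 77.3 CPM in those labelled wild type, with overlap. Ube2c, the ubiquitin-conjugating enzyme of the same complex, had a log2 fold change of -0.90 with an interval from -1.96 to 0.17.

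**Figure D4:**
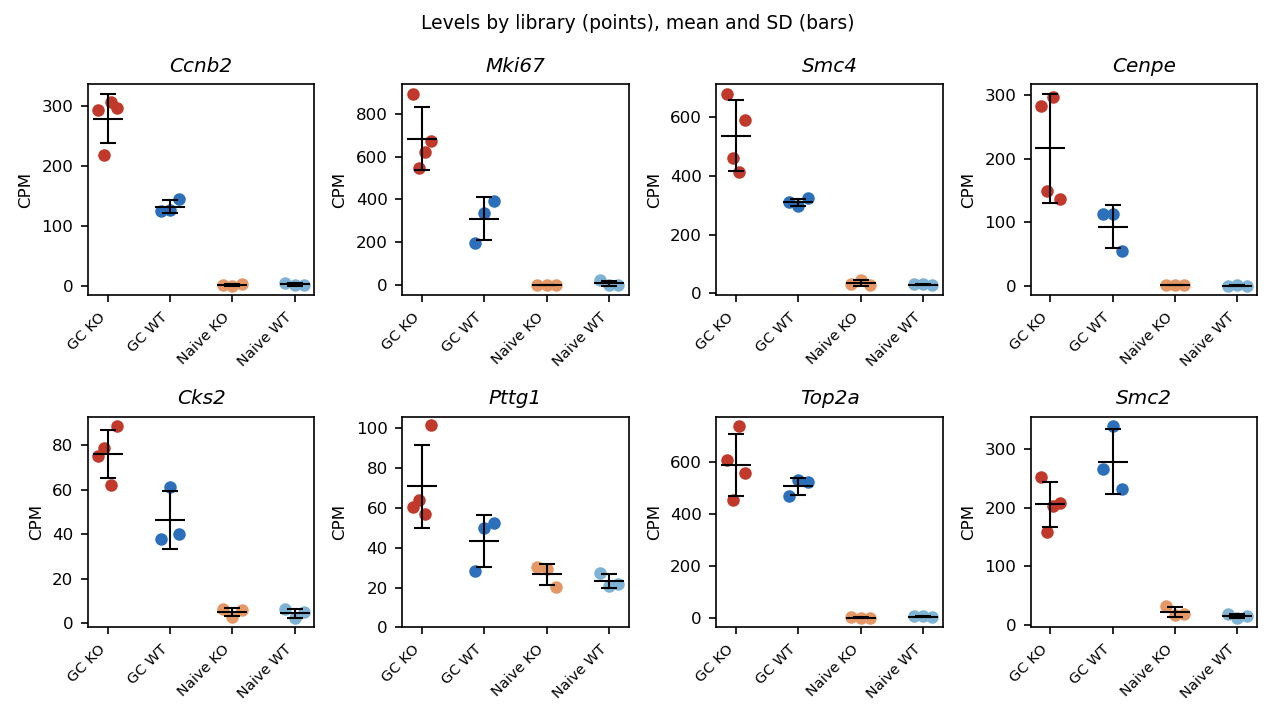
CPM of 8 members in each germinal centre and naive library (points), with group means and SD (bars). Ccnb2, Mki67, Smc4, Cenpe, Cks2 and Pttg1 have every germinal centre library labelled knockout above those labelled wild type, whereas Top2a and Smc2 overlap as deposited, and naive levels are low except for Pttg1, Smc4 and Smc2.

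The libraries within each germinal centre group were not equally often the highest or the lowest for members. The same counts over all genes were not made. Among those labelled knockout, replicate 1 was the highest for 16 members and replicate 2 the lowest for 22. Among those labelled wild type, replicate 1 was the lowest for 26 members and the highest for 7. Replicate 3 was the highest for 18 and the lowest for 7. Replicate 3 of the wild-type label listed Xist at 0 and the Y-linked gene Ddx3y at 159 CPM, whereas the other 6 germinal centre libraries had Xist between 11.6 and 205 CPM and Ddx3y at 0. Without that library and replicate 1 of the knockout label, 2 members were called, Ccnb2 and Mki67.

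Other features of the libraries moved with the labels, and their part in the levels of the 38 genes was not tested. Of the 9 T cell markers tested, all 9 were higher in libraries labelled knockout, where the 10 listed summed to 982 to 1866 CPM, against 30.2 to 63.9 CPM in those labelled wild type, where Cd3d, Cd3e, Cd3g, Cd4, Cd8a, Trbc2 and Icos were listed at 0. The 8 macrophage and monocyte markers summed to 141 to 1573 CPM in libraries labelled knockout, against 77.1 to 202 CPM in those labelled wild type, where Lyz2, Csf1r, C1qa, C1qb, C1qc and Vcam1 were at 0. The 6 B cell markers summed to 6336 to 7066 CPM in libraries labelled knockout, against 3948 to 4818 CPM in those labelled wild type. The 6 naive B cell markers summed to 373 to 714 CPM in libraries labelled knockout, against 1719.9 to 2720.1 CPM in those labelled wild type. Cdkn1a, which encodes the Cdk inhibitor p21, was at most 9.03 CPM in every library labelled knockout, against 578, 587 and 595 CPM in those labelled wild type (log2 fold change -7.54, limma adjusted p = 0.0013). Immunoglobulin genes took 2.35% to 7.37% of the CPM in libraries labelled knockout, against 6.78% to 13.2% in those labelled wild type. Of 8 plasma cell markers, 5 (Xbp1, Mzb1, Irf4, Slamf7 and Prdm1) were called lower in libraries labelled knockout and none higher. The means of Jchain (7923 against 3719 CPM) and Tnfrsf17 (15.6 against 2.65 CPM) went the other way. The 8 summed to 4099 to 12082 CPM in libraries labelled knockout, against 7292 to 11555 CPM in those labelled wild type, with overlap. Erythroid markers summed to 32.8 to 1831 CPM in libraries labelled knockout, highest in replicate 1, against 3.14 to 18.4 CPM in those labelled wild type. Neutrophil, NK and dendritic cell markers summed to at most 233, 102 and 72.0 CPM in libraries labelled knockout, against at most 0.601, 12.8 and 38.7 CPM in those labelled wild type.

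The counts for neighbouring genes of the cycle stand beside the same 8.54% of all genes called higher and 5.09% called lower. Of 56 other mitosis genes tested, 3 were higher and 3 lower in libraries labelled knockout. Bub3, a spindle checkpoint protein, averaged 527 ± 55.0 CPM in libraries labelled knockout and 302 ± 14.3 CPM in those labelled wild type (log2 fold change 0.80, limma adjusted p = 0.0056). Zwint, a kinetochore protein, averaged 171 ± 45.02 CPM under the knockout label and 391.7 ± 23.3 CPM under the wild-type label (log2 fold change -1.23, limma adjusted p = 0.0068). Psrc1, a microtubule-associated protein of the spindle, averaged 10.5 ± 16.6 CPM under the knockout label and 113 ± 22.1 CPM under the wild-type label (log2 fold change -4.48, limma adjusted p = 0.023). None of 12 genes of the G2/M switch was called by limma, with 2 at an unadjusted p under 0.05. Of 15 tested genes of the anaphase-promoting complex, 1 was called, its subunit Anapc5, with 313 ± 49.8 CPM in libraries labelled knockout and 592 ± 30.3 CPM in those labelled wild type (log2 fold change -0.93, limma adjusted p = 0.0051).

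Of 15 genes of the DREAM, MuvB, B-Myb and FoxM1 complexes, 1 was called, E2f5, an E2F of the repressive kind, with 26.4 ± 9.81 CPM in libraries labelled knockout and 3.76 ± 5.23 CPM in those labelled wild type (log2 fold change 3.09, limma adjusted p = 0.046). Of 44 genes of the G1/S transition, 5 passed, all of them upward, a share near that background. Slbp, the histone stem-loop binding protein, averaged 1132 ± 106 CPM in libraries labelled knockout and 618 ± 69.7 CPM in those labelled wild type (log2 fold change 0.87, limma adjusted p = 0.0032). Rfc2, a subunit of the clamp loader of replication, averaged 501 ± 114 CPM under the knockout label and 235.3 ± 34.8 CPM under the wild-type label (log2 fold change 1.07, limma adjusted p = 0.0086).

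In naive B cells 7 of the 38 members passed the minimum mean of 10 CPM, and none was called by limma between libraries labelled knockout and wild type. No gene of the 8832 tested was called (0% in each direction), with 587 at an unadjusted p under 0.05, none of them a member. Smc2 had 31.3, 16.4 and 17.9 CPM in libraries labelled knockout, against 17.99, 11.6 and 14.9 CPM in those labelled wild type (log2 fold change 0.50, interval -0.31 to 1.31). Smc4 had 31.8, 46.3 and 28.1 CPM in libraries labelled knockout, against 30.2, 29.8 and 26.6 CPM in those labelled wild type (log2 fold change 0.25, interval -0.32 to 0.82). Aurkb had 0, 11.5 and 13.6 CPM in libraries labelled knockout, against 13.9, 17.7 and 3.61 CPM in those labelled wild type. The groups overlapped for all 3 genes.

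Of the genes tested, all averaging 10 CPM or more, 5.99% had naive libraries labelled knockout above all those labelled wild type and 7.61% below. Over all 38 members, counted at any level, 3 were above and 1 below. These were Cenpe, Ndc80 and Ube2c, each at most 3.53 CPM, and Top2a, with 3.32, 1.198 and 1.80 CPM in libraries labelled knockout, against 7.73, 7.80 and 3.34 CPM in those labelled wild type. Mki67 was at 20.4 CPM, or 266 reads, in replicate 1 of the naive wild-type label, against at most 1 read in each of the other 5 naive libraries. Cenpf, a large kinetochore protein, was at 9.57 CPM in that library and at most 1.07 CPM in the other 5. The same library was the highest of its group for 23 of 38 members and the lowest for 7. Such counts were not made over all genes there.

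The difference between the germinal centre and the naive effect of the label was tested in a joint fit of 13 libraries. None of the 38 members was called by limma, with 4 at an unadjusted p under 0.05, where 5.02% of 8871 genes were called upward and 2.82% downward. The minimum mean of 10 CPM was taken over all 13 libraries, so members low in naive cells entered through their germinal centre level. Top2a came closest, with a difference of 1.41 on the log2 scale (interval 0.45 to 2.37, limma adjusted p = 0.076). Its germinal centre log2 fold change was 0.20, so most of this difference came from naive values of at most 7.80 CPM. Top2a was called once replicate 1 of the naive knockout label (1.68, adjusted p = 0.040) or replicate 3 of the naive wild-type label (1.75, adjusted p = 0.022) was left out. For Ccnb2, Mki67 and Smc4 the difference was 1.22, 2.66 and 0.51, with limma adjusted p of 0.41, 0.23 and 0.36, so a difference between the germinal centre and the naive effect was not shown for them. Mki67 was at 20.4 CPM in replicate 1 of the naive wild-type label and at most 0.0857 CPM in the other naive libraries.

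Antibody-secreting cells held low levels of the set, and their order against naive cells turned on the immunoglobulin transcripts, which made up 61.5% to 70.2% of their CPM and 3.67% to 4.12% in naive cells. With values as deposited, 8 members were higher and 6 lower in every spleen antibody-secreting library than in every naive library labelled wild type. Of genes averaging 10 CPM or more, 5.56% were higher and 83.7% lower. Members were counted at any level, so these counts and shares are not like for like. As deposited, the members averaging 10 CPM or more numbered 7 in naive libraries labelled wild type, 7 in bone marrow and 3 in spleen. With immunoglobulin genes left out of the totals, 18 were higher and 1, Pttg1, lower, where 13.3% and 45.8% of genes were. For bone marrow, 3 were higher and 5 lower as deposited, against 4.17% and 88.3% of genes, and 16 higher and 1 lower, again Pttg1, without immunoglobulin genes, against 9.42% and 48.8%. Pttg1 was thus lower in both secreting groups under either scaling, at 5.02, 4.30 and 6.42 CPM in bone marrow and 7.66, 7.01 and 6.71 CPM in spleen. Cdk1, Birc5 and Bub1b, a checkpoint kinase-like protein, were higher in bone marrow than in naive libraries labelled wild type under either scaling. As deposited, Birc5 started at 8.11 CPM in bone marrow and reached 11.5 CPM in naive libraries labelled knockout. In spleen the 8 were Ccnb2, Cdk1, Cdc25c, Mki67, Kif11, Nusap1, Hmmr and Ube2c, under either scaling.

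Mki67 took a larger share of the set in spleen than in bone marrow antibody-secreting cells. It was 9.38, 9.97 and 28.4 CPM in bone marrow libraries, against 40.5, 55.3 and 37.1 CPM in spleen libraries, with no overlap. It made up 5.93% to 8.10% of the summed set in bone marrow libraries, against 21.8% to 26.7% in spleen libraries, a share that does not depend on the library total. Without Mki67 the sum of the other genes was 115, 113 and 450.1 CPM in bone marrow libraries, against 124.4, 152 and 133 CPM in spleen libraries. Between the 2 organs, 1 member was higher in every bone marrow library (Kif2c, a kinesin that depolymerizes microtubules) and 2 were lower (Mki67 and Pttg1). Of genes averaging 10 CPM or more, 0.733% were higher and 28.7% lower, whereas members were counted at any level. With immunoglobulin genes left out of the totals, Kif2c and Kif23 were higher and Mki67 lower, where 2.29% and 17.2% of genes were.

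Bone marrow replicate 3 stood apart along the set. It was the highest of the 3 bone marrow libraries for 37 of 38 members, and at least 2-fold above both others for 31. The median ratio of replicate 3 to the mean of replicates 1 and 2 was 4.31 over the members, against 1.41 over the 10950 genes averaging 1 CPM or more, of which 59.7% were highest in replicate 3. Ccna2 had 2.61, 5.73 and 36.5 CPM in replicates 1, 2 and 3, and Top2a had 5.67, 6.81 and 18.97 CPM. Smc4, at 11.1, 7.05 and 12.5 CPM, and Pttg1 differed least. Among the 45 G1/S genes, 40 were highest in it as well. Its erythroid markers summed to 44.1 CPM, against 2.84 and 11.6 CPM in replicates 1 and 2, its neutrophil markers to 257 CPM, against 55.8 and 275.03 CPM, and its plasma cell markers to 136284 CPM, against 159567 and 139104 CPM. Their part in the difference was not tested. Without replicate 3, 11 members instead of 2 were lower in bone marrow than in every spleen library as deposited, and the mean sum was 123.99 CPM in place of 242 CPM.

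**Figure D5:**
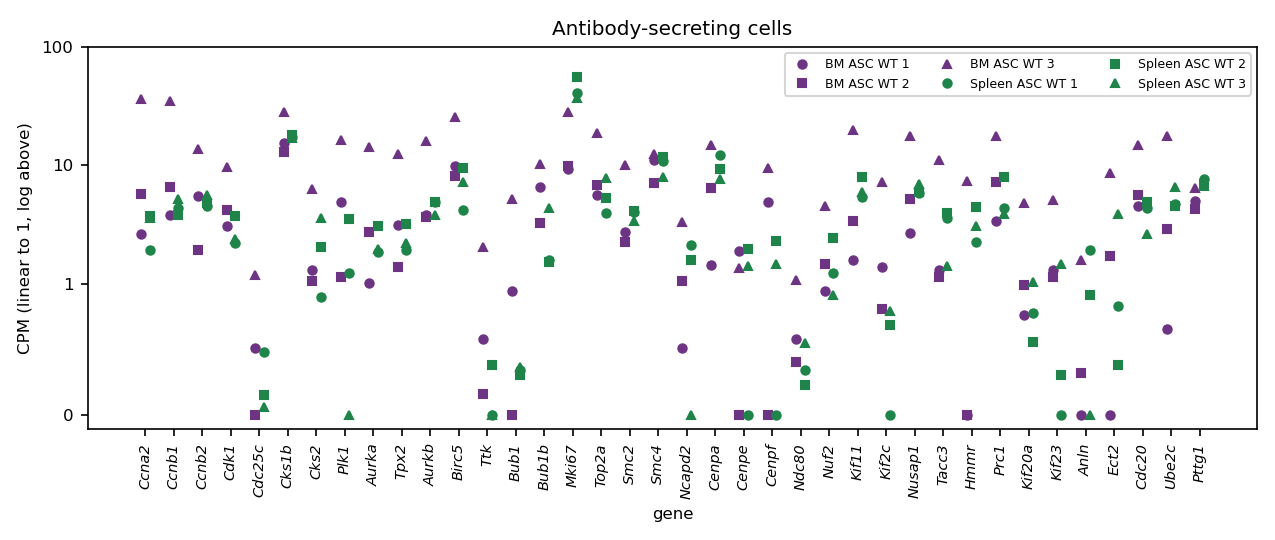
CPM of each of the 38 genes in the 3 bone marrow (left of each gene) and 3 spleen (right of each gene) antibody-secreting libraries, on an axis linear to 1 and logarithmic above. Bone marrow replicate 3 (triangles) lies above its partners for 37 genes. By difference in CPM, Mki67 is the gene with spleen libraries (37.1 to 55.3 CPM) farthest above bone marrow replicates 1 and 2. Hmmr is at 0 in those replicates and at 2.28 to 4.42 CPM in spleen libraries.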

How the data were processed

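The values are CPM, which the authors deposited in 4 tables (germinal centre, naive, spleen and bone marrow antibody-secreting cells). Reads were aligned with STAR to mm10, per the submitters' processing notes. How reads were counted, on which strand and annotation, is not given in the sources used here. The 11 members whose exons overlap another gene, and those with near-identical copies, therefore carry an uncertain split of reads. The germinal centre table had 0.0001 added to each value, which was subtracted. Elsewhere 19 gene names had been turned into dates and were left out, and 9 columns are headed HET where the labels say wild type, and the labels were kept. Replicates 2 and 3 of the germinal centre wild-type label are the columns headed W3 and W2. Depth came from the worth of 1 read in low values. From 61.6% to 88.9% of values below 1000 reads lay within 0.02 of a whole read, so no count model was used. The floor of 3 reads covers counting error only.

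Genes averaging 10 CPM or more were fitted with limma 3.58.1 in R 4.3.3 (lmFit, eBayes with trend) on log2(CPM + 1) over the whole table. Adjusted p-values are Benjamini-Hochberg over all genes tested and called under 0.05, and a fold change on this scale understates that of low genes. TMM factors and descriptions were computed in R and in Python 3.11.15 with pandas 2.3.3 and matplotlib 3.10.9. Levels across tables are described by counts of members whose libraries do not overlap, with no minimum level. Beside them stands the share of all genes averaging 10 CPM or more in the groups compared. Counts and shares are therefore unlike where members are low. Exon lengths came from GENCODE M21 (mm10). In simulated data the germinal centre fit recovered 8% of genes changed 2-fold and 24% of those changed 4-fold. The naive fit recovered 26% and 66%, and the joint fit 6% and 40%. The simulated germinal centre, naive and joint fits called 80, 128 and 83 genes, against 1162, 0 and 695 in the data. Adjusted p depends on how many genes change, so these rates are a rough guide to the fits on the data. A member that was not called is therefore not shown to be unchanged. Alternatives were pseudocounts of 0.1 and 5, a minimum of 1 CPM or none, TMM, totals without immunoglobulin genes, a replicate block, sample weights, robust fitting and each library left out. Values per library are printed for members called, the highest of each role, those with the smallest p and those not overlapping, and the others named were chosen after their values were seen. The members and lists were chosen with earlier results of these data known.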

Additional observations from a re-analysis of the deposited data

Results flagged for a closer look

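In 4 of the 40 member-and-sum series tested over the 4 germinal centre libraries labelled knockout, 1 library lay farther from the other 3 than Dixon's 95% limit allows, where chance gives about 1 in 20. Ccna2 was highest in replicate 1 at 117 CPM, with the next library at 77.9 CPM. Ccnb2 was lowest in replicate 2 at 217 CPM, with the next at 292 CPM, and that value is still above the highest library labelled wild type. Nusap1 was lowest in replicate 2 at 133 CPM, with the next at 227 CPM. Pttg1 was highest in replicate 4 at 101 CPM, with the next at 63.8 CPM.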

How the results depend on the processing

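Ccnb2 kept its call under all 17 alternatives and Mki67 under 16, all but the replicate block (1.18, limma adjusted p = 0.061). Replicate numbers did not pair the libraries, since deviations of same-numbered libraries correlated between -0.05 and 0.08, and with the replicate block 1 member (Ccnb2) was called in germinal centre cells and Smc4 was not (0.71, limma adjusted p = 0.070). The members called there numbered 2 to 4 when each library was left out, and the genes called 603 to 1134 in place of 1162, or 432 with replicate 1 of the knockout and replicate 3 of the wild-type label both left out. In the joint fit 0 to 1 members were called. The sign of small differences turned. Aurkb moved to 0.25 with the replicate block, to 0.032 with sample weights and to between -0.40 and 0.25 with each library left out, and in naive cells to between -1.56 and 0.31. Cks1b moved to -0.0037 with TMM, -0.046 without immunoglobulin genes, -0.050 with the block and between -0.17 and 0.23 with a library left out. Nusap1 moved to 0.17 with both libraries left out and between -0.47 and 0.23 with each. TMM gave mean sums of 3867 and 3136 CPM in germinal centre libraries labelled knockout and wild type, 143 and 133 CPM in naive ones, and 663 and 446 CPM in bone marrow and spleen antibody-secreting cells. Leaving immunoglobulin genes out gave 721 and 497 CPM in the same secreting cells and 5365 CPM in germinal centre libraries labelled wild type. With each library left out, members higher and lower than in naive libraries labelled wild type numbered 8 to 13 and 6 to 9 in spleen. In bone marrow they numbered 3 to 12 and 5 to 8. Without immunoglobulin genes they numbered 18 and 1 in spleen and 16 and 1 in bone marrow. Between bone marrow and spleen they numbered 1 to 9 higher and 2 to 11 lower, and without immunoglobulin genes 2 and 1. The causes were not tested. In each naive group 18 of 38 members were at 0 in at least 1 library, which limits what could be seen there.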
